A study of Rattus norvegicus with 2 samples.

Results

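RAB GTPase genes were read in the peaks of 1 chromatin immunoprecipitation library with sequencing (ChIP-seq) from rat myocardium. Members were all genes whose name in the peak annotation is Rab, a number and at most 1 letter, whatever the class of the peak. This gave 26 genes among 8094 gene names, and they carried 54 of 28706 peaks (0.188%). The rule takes a gene only if a peak carries its name, so carrying a peak is no finding about the 26. A gene table of the rat lists 58 protein-coding genes with such names and thus had 26 with a peak (44.8%), against 27.1% of all 23154 protein-coding genes. The other 32 had no peak under their name. Only 6375 of the 8094 names (78.8%) matched the gene table, whereas all 26 RAB names did. Names without a match could not count for all protein-coding genes. Their shares, here and below, may therefore be too low and the gaps to RAB shares too wide.

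The myocardium came from male Wistar rats with constriction of the abdominal aorta above the renal arteries, made by tying the vessel to a wire of 0.7 mm, a load of pressure on the heart. The library is labelled as sample 3 of the model, and a matching input of unprecipitated chromatin has the same number. Values of the input library, and of rats without constriction, were not analysed here, so no groups were compared, no test was possible and no value has a replicate error. How many animals gave the chromatin is not stated in the labels. The antibody is given by vendor and catalogue number, and its target was taken from the series title to be lactylated lysine 18 of histone H3 (H3K18la). Myocardium holds cardiomyocytes, endothelial cells, fibroblasts and other cells, and a peak does not say which of them carried the mark. Of 10 cardiomyocyte markers 7 (70%) had a peak, among them Tnnt2 and Actc1, with none at Myh6, Ttn or Ryr2. Peaks also stood at 6 of 8 endothelial (75%), 2 of 7 brain (28.6%) and 1 of 6 hepatocyte markers (16.7%). The share of all protein-coding genes was 27.1%. Centred within 1000 bp of the start site, peaks stood at 5 cardiomyocyte, 5 endothelial, 1 brain and 0 hepatocyte markers. That share was 17.1% over all protein-coding genes.

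RAB proteins are small GTPases that act as switches of membrane traffic. Bound to GTP they sit on the membrane of one organelle and recruit effectors, such as tethers and motor proteins, and bound to GDP they are held in the cytosol by a dissociation inhibitor. Exchange factors switch them on and GTPase-activating proteins switch them off. In heart muscle they serve, among other tasks, the recycling of receptors and channels, the delivery of the glucose transporter GLUT4 to the cell surface and the fusion of autophagosomes with lysosomes.

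Promoter sequences are shown for the 4 members with the strongest promoter-class peaks, to set the letters at these start sites beside the mark. Each runs 5′ to 3′ on the gene's strand, from 250 bases before to 50 after the start of the RefSeq gene in assembly GRCr8. Capitals mark any of 6 motifs searched on both strands, which were CACGTG (the E-box, core of the lysosomal gene motif), TGACGT (part of the cAMP response element), CCGGAA (core of ETS factor sites), GGGCGG (the GC box), CCAAT (the box of that name) and TATAAA (the TATA box). The windows are chr10:63581292-63581591 (plus strand) for Rab34, chr9:112828043-112828342 (minus) for Rab31, chr14:98623427-98623726 (plus) for Rab1a and chr13:45859788-45860087 (plus) for Rab29. These positions are in GRCr8, whereas all peaks below are in rn6.

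Rab34: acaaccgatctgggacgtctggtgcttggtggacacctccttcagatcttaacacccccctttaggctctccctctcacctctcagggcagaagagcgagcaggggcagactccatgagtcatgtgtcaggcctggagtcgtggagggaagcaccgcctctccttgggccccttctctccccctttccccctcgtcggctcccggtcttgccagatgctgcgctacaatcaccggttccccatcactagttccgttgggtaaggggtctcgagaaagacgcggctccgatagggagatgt
Rab31: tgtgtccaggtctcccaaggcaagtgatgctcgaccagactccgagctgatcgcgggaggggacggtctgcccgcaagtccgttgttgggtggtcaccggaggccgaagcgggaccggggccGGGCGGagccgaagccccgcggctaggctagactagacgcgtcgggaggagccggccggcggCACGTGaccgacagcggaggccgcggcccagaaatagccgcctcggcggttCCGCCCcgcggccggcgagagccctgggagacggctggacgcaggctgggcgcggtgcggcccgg
Rab1a: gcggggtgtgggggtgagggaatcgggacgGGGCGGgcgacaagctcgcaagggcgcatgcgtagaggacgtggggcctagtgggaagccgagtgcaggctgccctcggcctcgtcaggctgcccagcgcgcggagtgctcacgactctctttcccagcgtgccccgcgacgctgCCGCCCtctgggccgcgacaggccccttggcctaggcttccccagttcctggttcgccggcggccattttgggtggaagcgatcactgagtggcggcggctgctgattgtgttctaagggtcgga
Rab29: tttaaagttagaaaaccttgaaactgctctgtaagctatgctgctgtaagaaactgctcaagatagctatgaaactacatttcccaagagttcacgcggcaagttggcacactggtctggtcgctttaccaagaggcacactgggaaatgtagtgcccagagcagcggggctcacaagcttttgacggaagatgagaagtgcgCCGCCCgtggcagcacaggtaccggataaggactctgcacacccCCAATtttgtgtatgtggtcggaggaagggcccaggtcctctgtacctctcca

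The 4 promoters differed in composition. The Rab31 window had 73.7% G and C and 41 CpG dinucleotides, with 1 E-box and 2 GC boxes. Rab1a had 69% G and C, 30 CpG and 2 GC boxes. Rab34 had 60% G and C, 15 CpG and none of the 6 motifs, and Rab29 had 51.3% G and C, 10 CpG, 1 GC box and 1 CCAAT box. The peaks at Rab31 and Rab29 spanned the transcription start site (TSS), while those at Rab34 and the promoter-class peak of Rab1a were centred 931 and 774 bp upstream, beyond the sequence shown.

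The promoter table held 47 of the 58 RAB genes, 23 with a peak and 24 without. A GC box stood in 18 of the 23 (78.3%) and in 19 of the 24 (79.2%), against 64.2% of 5117 protein-coding genes with a peak and 44.1% of all 19005 protein-coding genes in the table. TATAAA was in none of the 47, against 14.0% of all. CCAAT was in 11 of the 23 (47.8%) and 7 of the 24 (29.2%), against 39.8% of all, and CCGGAA in 7 (30.4%) and 5 (20.8%), against 19.2%. CACGTG was in 2 of the 23 (Rab20 and Rab31) and 2 of the 24 (Rab21 and Rab5a), against 7.69% of all. TGACGT was in 2 of the 23 and 4 of the 24, against 9.40% of all. Among protein-coding genes with a peak, TATAAA was in 8.25%, CCAAT in 37.5% and CCGGAA in 24.5%. CACGTG was in 9.28% of them and TGACGT in 11.7%. Median G and C was 63% in the 23 and 64% in the 24, close to 62% in genes with a peak and above 55.3% in all protein-coding genes. RAB promoters with and without a peak thus had nearly the same G and C content and share of GC boxes, and a motif match only describes letters.

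A larger share of RAB peaks than of other peaks lay near a start site, although most RAB peaks did not. Of the 54 RAB peaks, 21 (38.9%, 95% Wilson interval 27.0 to 52.2%) had their centre within 1000 bp of the TSS, against 5548 of 28652 other peaks (19.4%, 18.9 to 19.8%). Of these 21, 16 were downstream (76.2%, 54.9 to 89.4%), against 59.7% of other peaks, at 15 to 823 bp with a median of 354 bp. Centres farther than 10000 bp from the TSS were 18 (33.3%), against 57.4% of other peaks. Peaks classed as intron numbered 33 (61.1%, 47.8 to 73.0%), against 43.8% of other peaks. Of these, 5 lay in introns of other named genes, and 26 of the 33 (78.8%) were in intron 1, against 49.8% of other intron peaks. Intergenic peaks were 10 (18.5%, 10.4 to 30.8%), against 41.2% of other peaks. The promoter class held 7 (13.0%, 6.42 to 24.4%), against 9.77% of other peaks, and exons and transcription termination sites 2 each. These intervals cover counting error only, and peaks of 1 gene are not independent. RAB genes had 2.08 peaks each on average and other names 3.53, so a share of peaks is not a share of genes. Counted by gene with any peak, 73.1% of RAB genes had a near one, against 63.1% of protein-coding genes.

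The strength and width of RAB peaks were near those of the rest. Fold enrichment, the authors' ratio of each peak over the caller's local background, had a median of 4.31 (quartiles 3.77 and 5.05) over RAB peaks and 4.13 (3.62 and 4.79) over other peaks. It was 4.29 without the 11 peaks of Rab31. Fold enrichment of at least 6 was reached by 7 RAB peaks (13.0%), against 6.30% of other peaks. The 7 bore the names Rab2a, Rab3a, Rab1a, Rab31 and Rab11a, and the 6.21-fold peak named for Rab3a lay in an intron of Pde4c. RAB peaks near a TSS had a median of 4.59-fold, and those farther than 1000 bp 4.11-fold, where other peaks had 4.13-fold in both places. Median width was 386 bp over RAB peaks and 375 bp over other peaks.

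**Figure D1:**
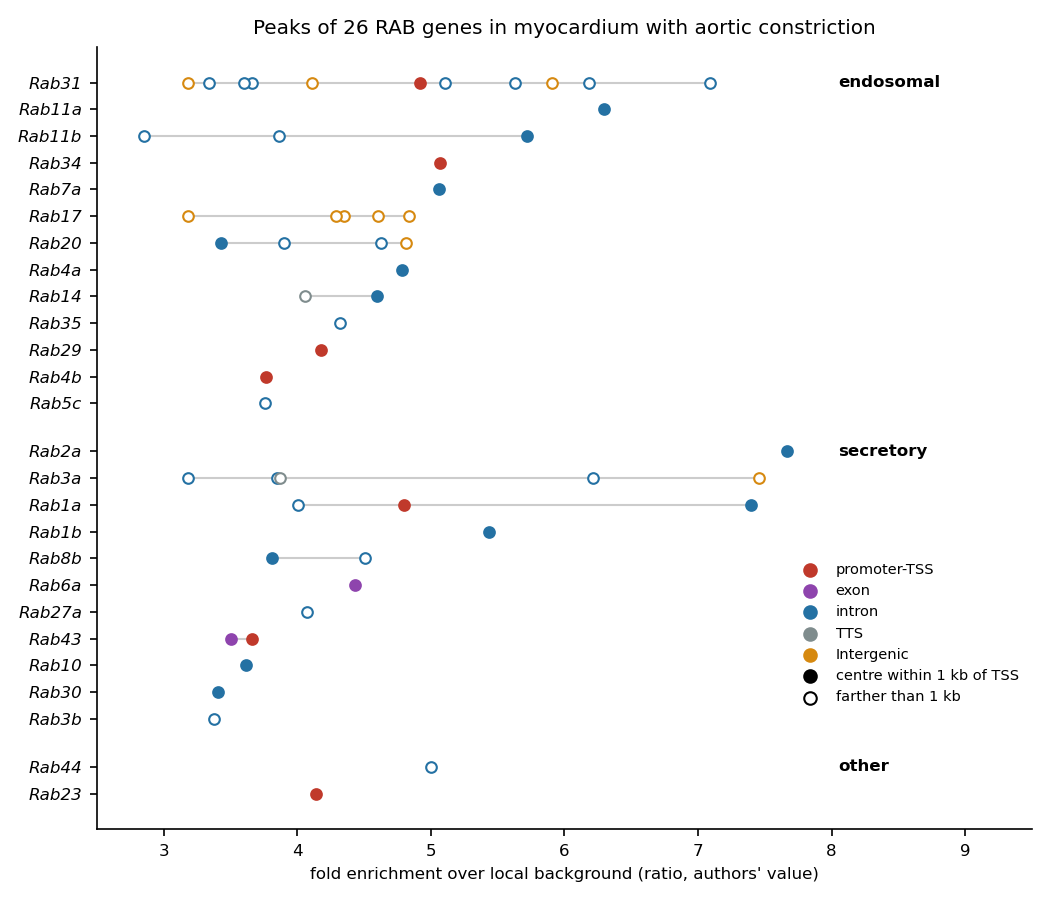
Fold enrichment (x axis, the authors' ratio over local background) of every peak of the 26 RAB genes (rows, grouped by role and ordered by the strongest peak). Colour gives the class of the peak, and filled points have their centre within 1 kb of the TSS. Rab2a, Rab3a and Rab1a reach 7.67-fold, 7.45-fold and 7.40-fold, and Rab31 has the most points, 11.

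Endosomal RABs made up the largest group, with a peak at 13 of 26 genes (50%, against 27.1% of all protein-coding genes). They carried 33 peaks with a median of 4.35-fold (2.86 to 7.09). A peak near the TSS stood at 10 of the 26 (38.5%, against 17.1%) and a promoter-class peak at 4 (15.4%, against 9.87%).

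Among recycling RABs, the strongest signal was at Rab11a (ENSRNOG00000011302), which returns cargo from the recycling endosome to the plasma membrane. Its single peak of 6.30-fold, in intron 1, was centred 569 bp past the TSS (chromosome 8, 70214221 to 70216079). At 1859 bp it was the widest RAB peak, and it spanned the TSS. Its close paralog Rab11b had 3 peaks along intron 1, of 5.72-fold at 206 bp (chromosome 7, 18611631 to 18612194), 2.86-fold at 2019 bp and 3.87-fold at 3859 bp. The signal at Rab11b was thus highest at the start site, and the 2.86-fold peak was the weakest of all RAB peaks. Rab4a and Rab4b, which serve fast recycling from early endosomes, each had 1 peak near the TSS. That of Rab4a had 4.79-fold in intron 1 (427 bp downstream) and that of Rab4b 3.77-fold at the promoter (652 bp upstream, chromosome 1, 83991103 to 83991378). Rab14, of endosomes and the Golgi, had 4.59-fold at 569 bp in intron 1 and 4.06-fold at a termination site. Rab35, which acts in recycling at the plasma membrane, had a single peak of 4.32-fold 19.8 kb downstream of its TSS, in intron 9 of a transcript for which no peak gives a gene name. Rab15 and Rab25 had no peak.

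Most peaks of Rab5c, Rab20 and Rab17 lay away from the start site. Rab5c, one of 3 paralogs that control fusion of early endosomes, had 3.76-fold 10.9 kb downstream in intron 1, and Rab5a and Rab5b had no peak. Rab20, of endosomes and phagosomes, had 4 peaks, at 4.81-fold 2962 bp upstream, 3.43-fold at 436 bp, 4.63-fold at 1288 bp and 3.90-fold at 14.3 kb in intron 1. The peak nearest to the Rab20 TSS was its weakest. Rab17, known from epithelial endosomes, had 5 intergenic peaks from 7679 to 26600 bp upstream and none within 1000 bp of its TSS. They ranged from 3.18-fold to 4.84-fold (chromosome 9, 98147061 to 98147280). They lay on the side where Lrrfip1 is the next gene in the GRCr8 gene order. Rab21 and Rab22a had no peak.

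Rab31 (ENSRNOG00000042189), which sorts cargo between the Golgi and endosomes, had the most peaks of the family. Its 11 peaks covered 8.49 kb within 61.5 kb of chromosome 9. Of the 8094 names, 431 had more peaks and 6.15% had as many or more, so the number is high but not rare in this list. The strongest peak lay deep in intron 1, at 7.09-fold 25.5 kb downstream of the TSS (113478228 to 113479909). A peak of 5.63-fold 27.4 kb downstream (113476493 to 113478015) stood 212 bp from it. The promoter peak was 1736 bp wide, at 4.92-fold and centred 136 bp upstream (113503874 to 113505609). Others stood at 6.18-fold 3243 bp downstream (113500939 to 113501785) and at 5.90-fold 9905 bp upstream (113514130 to 113514890). The strongest marks at Rab31 were thus inside the gene and upstream of it rather than at the promoter. The 6 remaining peaks had 3.18-fold to 5.11-fold.

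**Figure D2:**
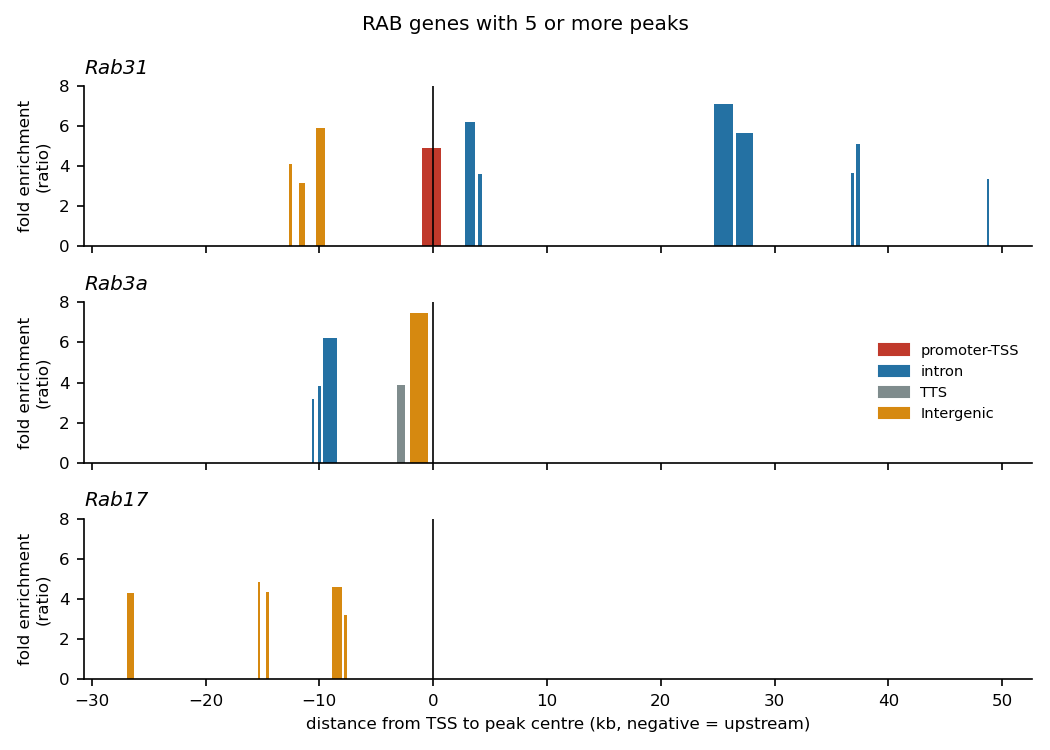
Fold enrichment (y axis, ratio) against distance from the TSS (x axis, kb, upstream negative) for the 3 RAB genes with 5 or more peaks. Each bar is 1 peak at its true width, coloured by class. Rab31 has peaks on both sides of its TSS, with the highest 25.5 kb downstream, while all peaks of Rab3a and Rab17 lie upstream.

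Among the RABs of late endosomes and lysosomes, Rab7a, Rab29 and Rab34 had a peak. Rab7a (ENSRNOG00000012247) directs late endosomes and autophagosomes to fusion with lysosomes and takes part in mitophagy. Its single peak, in intron 1 and centred 437 bp past the TSS, had 5.06-fold (chromosome 4, 119958528 to 119958945), with a −log10 q of 7.79. Rab29, a partner of the kinase LRRK2 at lysosomes and Golgi, had 4.18-fold across its TSS (chromosome 13, 48644422 to 48645001). Rab34, which positions lysosomes and acts in cilia, had the highest promoter-class peak of the family, 5.07-fold (chromosome 10, 65447884 to 65448154). The class of the Rab34 peak came from another transcript than the one whose TSS was nearest, and no peak gives that transcript a gene name. Rab7b, Rab9a, Rab9b, Rab32, Rab36, Rab38 and Rab39a had no peak.

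Secretory RABs had a peak at 11 of 22 genes (50%, against 27.1% of all protein-coding genes), with 19 peaks of median 4.01-fold (3.18 to 7.67). That median is the value of a peak named for Rab1a in an intron of Cep68, and most peaks named for Rab3a lay in Pde4c. The median therefore does not describe secretory RAB genes alone. Near the TSS 8 of the 22 had a peak (36.4%, against 17.1%). Those with one of promoter class were Rab1a and Rab43, 2 of 22 (9.09%), about the 9.87% of all protein-coding genes.

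Traffic between endoplasmic reticulum and Golgi held the strongest start-site peaks of the family. Rab2a (ENSRNOG00000005963), which acts in transport between them, had the strongest RAB peak, 7.67-fold in intron 1 and across its TSS (chromosome 5, 21632787 to 21633448). It ranked 313 of 28706 peaks by fold enrichment, and its paralog Rab2b had none. Rab1a (ENSRNOG00000004992), needed for transport to the Golgi, had 7.40-fold 305 bp downstream, across the TSS (chromosome 14, 104475006 to 104475768). Its promoter-class peak had 4.80-fold 774 bp upstream (104474052 to 104474564). A further peak of 4.01-fold bore the name Rab1a but lay in an intron of Cep68. Its paralog Rab1b had 5.44-fold in intron 1, 403 bp downstream (chromosome 1, 220490851 to 220491282). Rab6a, a Golgi RAB, had 4.43-fold across its TSS, in exon 1 of a transcript for which no peak gives a gene name. Its paralog Rab6b had none. Rab43, also of the Golgi, had 2 weak peaks, 3.51-fold in exon 1 and 3.66-fold at the promoter. Rab30, another Golgi RAB, had 3.41-fold 823 bp downstream. Rab18 and Rab33a had no peak.

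RABs of exocytosis were more mixed. Rab3a (ENSRNOG00000019433), known from regulated exocytosis in neurons and endocrine cells, had 5 peaks, all upstream of its TSS. The strongest had 7.45-fold, centred 1247 bp upstream, was 1663 bp wide and was classed as intergenic (chromosome 16, 20439622 to 20441284). The other 4 Rab3a peaks were placed by the annotation in Pde4c, a phosphodiesterase gene that is next to Rab3a in the gene order, at 3.18-fold to 6.21-fold. Only the first can therefore be read as lying beside Rab3a and in no other named gene. Rab3b had 3.38-fold 57.4 kb downstream in intron 4, and Rab3c and Rab3d had none. Rab8b, of transport from Golgi to plasma membrane, had 3.81-fold at 413 bp and 4.51-fold at 4704 bp in intron 1, and Rab8a had none. Rab10, which delivers GLUT4 vesicles to the plasma membrane in adipocytes, had a modest 3.62-fold across its TSS (chromosome 6, 27720501 to 27721326). Rab27a, of secretory granules and exosomes, had 4.07-fold 25.1 kb downstream. Rab13, Rab26, Rab27b and Rab37 had no peak.

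None of the 3 RABs grouped by autophagy as their main role, Rab12, Rab24 and Rab33b, had a peak of any class under its name. With 27.1% of all protein-coding genes carrying a peak, 0 of 3 is too few genes to set this group apart. Rab24 marks autophagosomes, and Rab33b binds the conjugation factor ATG16L1 at the forming autophagosome. In a wider group of 12 RABs that were assigned some role in autophagy here, 5 (41.7%) had a peak, against 27.1% of all protein-coding genes. These were Rab2a, Rab1a, Rab11a, Rab1b and Rab7a, whose strongest peaks, from 7.67-fold to 5.06-fold, all had their centre within 1000 bp of the TSS. The median over their 7 peaks, among them the 4.01-fold peak in an intron of Cep68, was 5.44-fold. Rab5a, Rab9a, Rab26 and Rab37 were the others of the 12 without a peak. The 12 were assigned with earlier results of these data known, and strength was read only over the 5 with a peak. These values therefore do not set the group apart. They hold for this list only, and other RABs may also act in autophagy.

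Among the 7 RABs outside these roles, Rab23 and Rab44 had a peak. Rab23, a regulator of hedgehog signalling and cilia, had 4.14-fold across its TSS, 15 bp downstream (chromosome 9, 38495059 to 38495263). Its promoter class came from another transcript than the one whose TSS was nearest, and no peak gives that transcript a gene name. The only peak named for Rab44 had 5.004-fold but lay 46.9 kb downstream of its TSS in an intron of Cpne5. Rab19, Rab28, Rab40b, Rab40c and Rab42 had no peak.

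**Figure D3:**
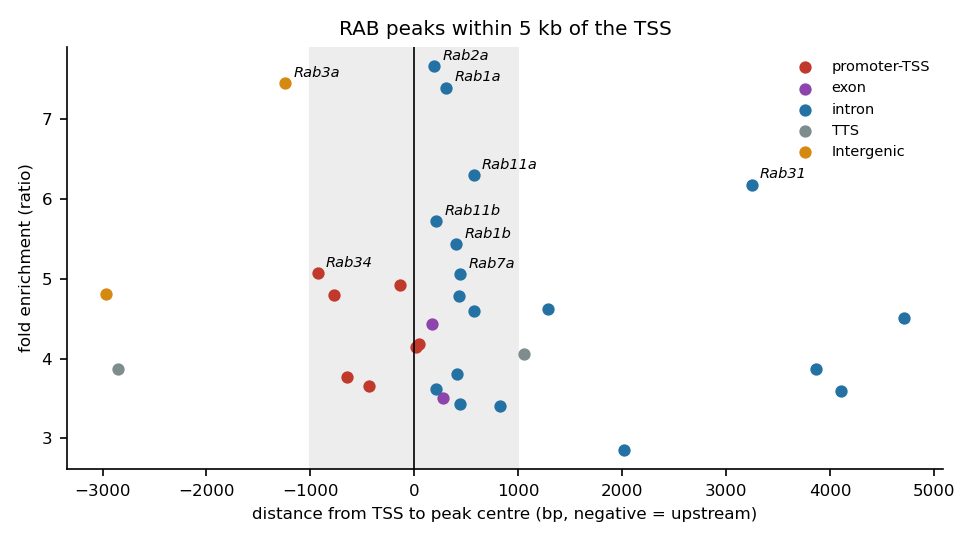
Fold enrichment (y axis, ratio) against distance of the peak centre from the TSS (x axis, bp, upstream negative) for RAB peaks within 5 kb of a TSS, coloured by class, with the strongest named. The grey band marks 1000 bp on each side. Within it, the strongest peaks, at Rab2a, Rab1a and Rab11a, lie downstream and are classed as intron.

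Over the whole family, the result depended on which peaks count as promoter peaks. By the authors' promoter class, 7 of 58 RAB genes had one (12.1%, 95% Clopper-Pearson interval 4.99 to 23.3%), against 9.87% of 23154 protein-coding genes, a share near the background. Counting any peak centred at most 1000 bp from the TSS, it was 19 of 58 (32.8%, 21.0 to 46.3%), against 17.1%. A peak that spans the TSS stood at 10 of 58 (17.2%, 8.59 to 29.4%), against 6.73%. With any peak counted it was 26 of 58 (44.8%, 31.7 to 58.5%), against 27.1%. The gap between the first definition and the second came from 12 genes that had a near peak of class intron or exon and none of promoter class. They were Rab10, Rab11a, Rab11b, Rab14, Rab1b, Rab20, Rab2a, Rab30, Rab4a, Rab6a, Rab7a and Rab8b. Among genes with any peak, 19 of 26 RAB genes (73.1%) had a near one, against 63.1% of 6267 protein-coding genes, and 7 of 26 (26.9%) had one of promoter class, against 36.5%. At −log10 q of at least 5 a peak of any class stood at 16 RAB genes (27.6%), against 14.4%. With a fold enrichment of 4 or more, 20 RAB genes had one (34.5%), against 19.7%. Whether these shares differ was not tested, since genes of 1 library are no replicates. The shares of all protein-coding genes may be too low, as peak names without a match in the gene table could not count.

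**Figure D4:**
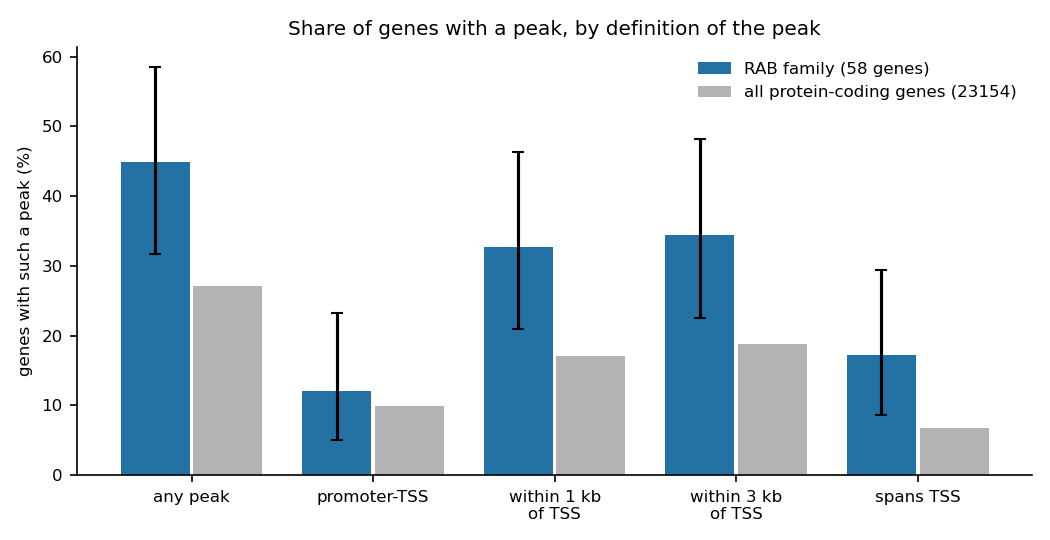
Share of genes (y axis, %) with a peak under 5 definitions (x axis) in the RAB family and in all protein-coding genes. Error bars are 95% Clopper-Pearson intervals of the RAB share, for counting error only. The promoter-TSS bars, 12.1% and 9.87%, are the closest pair.

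RABs with the same number did not always share a peak call. The family has 13 groups of 2 or more paralogs with the same number. All members had a peak in 3 groups (Rab1, Rab4 and Rab11), some had one in 7 (Rab2, Rab3, Rab5, Rab6, Rab7, Rab8 and Rab27) and none had one in 3 (Rab9, Rab33 and Rab40). Over the family 44.8% of genes had a peak. How groups of other paralogs split was not counted, so this split is no result about RAB paralogs. Rab9a, Rab9b and Rab33a are on the X chromosome, which held 234 peaks (0.815%). The share of all genes on that chromosome was not counted, and a link to these missing peaks was not tested. Of the 32 RAB genes without a peak, 15 had a direct neighbour in the gene order with a peak under its own name. How many of all genes have such a neighbour was not counted, so the 15 is no result about RABs. A missing name means only that no peak was called and named for the gene at this depth.

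Genes that act on RABs had peaks about as often as the RABs themselves. Of 126 such genes 62 (49.2%, against the 27.1% of all protein-coding genes) had a peak, and 23 (18.3%, against 9.87%) had one of promoter class, with a median of 4.09-fold over 268 peaks. Of 8 genes for prenylation and membrane cycling of RABs, 4 had one, the strongest at Rabac1 (4.43-fold) and Gdi2 (4.06-fold). Gdi2 encodes a GDP dissociation inhibitor of RABs. Exchange factors had a peak at 19 of 35 genes and a promoter-class one at 9 (25.7%). They were led by Rin3, an exchange factor of RAB5 proteins, whose promoter peak had 8.10-fold among 28 peaks, by Dennd3 at 6.54-fold upstream and by Rin2 at 6.20-fold at its promoter. Mon1a and Mon1b, alternative subunits of the exchange factor of RAB7, had 6.10-fold and 5.91-fold near their TSS.

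GTPase-activating proteins had a peak at 16 of 33 genes and a promoter-class one at 4 (12.1%, near the 9.87% of all protein-coding genes). Tbc1d5, which acts on RAB7, had 7.69-fold 271 bp downstream of its TSS. Tbc1d1, which restrains GLUT4 traffic in muscle, had 5.92-fold as the strongest of 7 peaks, and Tbc1d12 had 5.61-fold. Effectors had a peak at 21 of 48 genes and a promoter-class one at 8 (16.7%), led by Myrip, a linker of RAB27A to myosin, at 7.61-fold 65.4 kb downstream. Rab11fip5, an effector of RAB11, had 6.48-fold 444 bp downstream as the strongest of 15 peaks, and Mical3 6.27-fold upstream. Both kinases of the list, Lrrk1 (5.63-fold) and Lrrk2 (4.19-fold, promoter), had a peak. LRRK2 phosphorylates several RABs, among them RAB8A and RAB10.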

How the data were processed

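The submitters' processing notes name Bowtie2, MACS2 and HOMER among the tools, and the build rn6, without versions. The header of the annotation holds a path with q 0.05. Neither the control of the call nor the sequencing depth is given in the sources used here. Per the file headers, the deposited fold enrichment is a ratio over local background, deposited p and q are −log10 values, and the deposited score, a truncated multiple of −log10 q, was not used. The fold describes peaks within this list only. Peak names carry 1 sample name.

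The peak list and annotation were joined by peak name (Python 3.11.15, pandas 2.3.3, scipy 1.17.1). Peak coordinates are 1-based in rn6. Names were matched to RefSeq's GRCr8 gene table (6375 of 8094, 78.8%), used for names, gene order and background, and promoters came from RefSeq's table of that build. Counting was tested on simulated data. The members, lists and motifs were chosen with earlier results of these data known. Every RAB gene is named, with full values for the 6 strongest promoter-class and 6 strongest other genes, the 3 widest peaks and the 3 genes with most peaks. Of genes acting on RABs, the 3 strongest per group are named (1 item is not reported here), and Mon1a and Mon1b were added after their values were seen. Ccz1b had no row in the table. Alternatives were stricter peaks, other windows, merged peaks and a wider autophagy group.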

Additional observations from a re-analysis of the deposited data

How the results depend on the processing

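No paired analysis was possible because only 1 library has values. At −log10 q of at least 5, RAB genes with a peak numbered 16 against 26, those with a promoter-class peak 4 against 7, and RAB peaks 23 against 54. The median fold enrichment was then 5.11 over RAB peaks and 5.20 over all other peaks. At this cut 56.5% of RAB peaks lay within 1000 bp of the TSS. The share of other peaks there was not counted, so the rise is not read as a RAB trait. With the strongest peak of each gene, the median over RAB genes was 4.69 and that over other genes 4.64. In place of the promoter class, a centre within 1000 bp gave 19 genes (10 endosomal and 8 secretory), 32.8% of the family against 17.1% of all protein-coding genes. A centre within 3000 bp gave 20 genes (34.5% against 18.8%). With the wider group of 12 RABs assigned a role in autophagy, 1 gene had a promoter-class peak against 0. The other 12 of 26 alternative values stayed within 1.5 times the count reported or within its interval. Among them, leaving out the 6 peaks in transcripts named for another gene, an alternative chosen after seeing the data, gave 25 genes and 48 peaks, since Rab44 had no other peak. The strength values are coarse, with 1838 distinct fold enrichments in 28706 peaks, and 3 RAB peaks shared 3.18-fold with 408 peaks in all.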
